A study of Mus musculus with 8 samples.

Results

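The genes described here occupy the 20 Mb of mouse chromosome 7 that lie at lower coordinates than Bmal1 (gene midpoint between 93.2 and 113.2 Mb, build GRCm38). A gene was taken as a member when at least 4 libraries held at least 10 of its counts, and 7 genes of this stretch (Arrb1, Wee1, Rrm1, Adm, Tead1, Smpd1 and Ndufc2) were left out by name. Of the 34070 genes of the count matrix, 338 lay in the stretch, 133 of them were under the count rule, and 198 were members. They comprise 129 protein-coding genes, 41 pseudogenes and 28 other noncoding genes. The 7 members of the Trim5, Trim12, Trim30 and Trim34 families form a paralog cluster and are treated apart from the other 191. The stretch was chosen because genes that differ between the genotypes had been seen to gather there, so the differences between Bmal1cKO and Bmal1WT below describe these libraries and are no test of the stretch.

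The series compared the epidermis of 2 groups of adult mice, 18 to 25 weeks old and taken at zeitgeber time ZT4, 4 h after lights on. Bmal1cKO mice carried K14-Cre and Bmal1flox/flox, and Bmal1WT mice carried the same K14-Cre with Bmal1wt/wt, so both groups share the recombinase and differ in the Bmal1 allele. The keratin 14 promoter drives Cre in basal keratinocytes and, through them, in their progeny, while other cells of an epidermal suspension keep Bmal1. Each group held 4 libraries, with 35685261 to 50396156 counts per library. Whether the 4 libraries of a group stem from 4 animals is not stated, and the SDs, SEs and p-values below reflect variation among libraries, some of which may be technical.

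BMAL1 pairs with CLOCK on E-box sequences and drives the circadian genes of the skin. A gene that lies near an altered allele is inherited together with it, the more often the closer the 2 lie. The labels do not give the strain in which the floxed allele was made or the strain of the Bmal1WT mice. Absence of BMAL1 and the stretch of chromosome 7 that came with the floxed allele therefore cannot be told apart in these groups. TRIM proteins are ubiquitin ligases with a RING domain, a B-box and a coiled coil. Several are induced by interferon, TRIM5 of primates blocks incoming retroviruses, and mouse Trim30a restrains inflammatory signalling by Toll-like receptors. Rodents carry several near copies of these genes side by side, which is why reads of the copies have to be looked at with care.

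Several genes of the Trim cluster are nearly the same in sequence. The first 60 coding bases of Trim12a and Trim12c, and of Trim34a and Trim34b, are given from the start codon, read from GENCODE M21 transcripts on GRCm38, because they show how much of a 51-base read can tell the copies apart. Capitals mark the bases at which the members of a pair differ, 2 of 60 in each pair.
Trim12a: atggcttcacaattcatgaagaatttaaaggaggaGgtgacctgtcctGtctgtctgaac
Trim12c: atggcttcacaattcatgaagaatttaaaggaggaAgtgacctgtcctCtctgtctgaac
Trim34a: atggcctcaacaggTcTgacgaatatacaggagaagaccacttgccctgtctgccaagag
Trim34b: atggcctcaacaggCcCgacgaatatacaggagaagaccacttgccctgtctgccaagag
Over the aligned coding bases the identity was 97.1% for Trim5 and Trim12a (891 bases), 96.4% for Trim12a and Trim12c (891 bases), 96.6% for Trim5 and Trim12c (1491 bases), 98.2% for Trim34a and Trim34b (1451 bases) and 90.2% for Trim30a and Trim30d (1488 bases). Of all 51-base stretches in its transcripts, Trim12a shared 10.2% with transcripts of other genes, Trim12c 33.0%, Trim5 35.7%, Trim34a 59.2%, Trim34b 56.2%, Trim30a 5.9% and Trim30d 7.4%. By exact matches in the reference, the counts of Trim34a and Trim34b are thus uncertain for the larger part of their length. By the same measure those of Trim12a, Trim30a and Trim30d are uncertain for a small part of it. The sequence of these mice is not given in the sources used here. Whether differences from the reference moved reads between the copies, or lost them, was not tested.

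Bmal1 itself (symbol Arntl, ENSMUSG00000055116, chromosome 7, 113207465 to 113314126, plus strand), the reference point of the stretch, had 32.0, 34.4, 37.6 and 30.7 CPM in Bmal1cKO replicates 1 to 4, against 46.1, 42.0, 49.1 and 48.7 CPM in Bmal1WT replicates 1 to 4. CPM are counts relative to library size, with the size scaled by the TMM method. The groups did not overlap, and the transcript was lower in Bmal1cKO by a fitted log2 fold change of -0.47 ± 0.08 (SE). It missed the threshold used below and passed it with the replicate number as a block. Which exons were floxed is not in the labels, and the gene's count sums all of them.

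Along the stretch, 7 of the 194 members that could be fitted passed the threshold between the genotypes, an edgeR quasi-likelihood adjusted p under 0.05 over all 19646 genes tested, against 0.173% of all genes. Since the stretch was chosen on this contrast, nothing is read from that count. In Bmal1cKO 3 members were higher and 4 lower (0.0865% of all genes in each direction). With the replicate number as a block, 9 members passed (0.774% of all genes), the same 7 with Trim12c, which was higher, and Rnf169, which was lower. The 4 and 4 values of the groups did not overlap in 27 of the 194 tested members, 14 higher and 13 lower in Bmal1cKO (13.9%, against 5.15% of all genes tested). A total of 4 members fell under the filter on low counts and were not tested: Gm34280, Stk33, Trim66 and Snora23. Of these, Gm34280 did not overlap either, at 0.422 ± 0.148 CPM in Bmal1cKO and 0.173 ± 0.0368 CPM in Bmal1WT, which makes 28 of all 198 members. The counts of members without overlap that follow are of tested members.

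Most members differed little. Of the 194, 132 had an absolute fitted log2 fold change under 0.25 (68.0%, against 81.4% of all genes), and 13 were over 1 (6.70%, against 1.12%). The median log2 fold change of the members was -0.02, with 87 positive and 107 negative, and that of all genes tested was -0.01. The median absolute value was 0.14 for the members and 0.09 for all genes. Among the 120 tested coding members outside the Trim cluster, 0 passed the threshold by edgeR. DESeq2 called 7 of them, against 1.28% of all genes by DESeq2, and 26 had an unadjusted edgeR p under 0.05, against 8.30% of all genes. A total of 90 were under 0.25 in absolute log2 fold change. The 41 pseudogenes held 0 past the threshold by edgeR (1 by DESeq2, 2 at an unadjusted p under 0.05) and 2 whose groups did not overlap, with a median of -0.04. The 26 tested members among the other noncoding genes held 4 past the threshold and 6 without overlap. Of the 198 members, 73 share exonic bases with another listed gene, and 32 share 50% or more of their 51-base stretches with transcripts of other genes.

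The 13 members with an absolute log2 fold change over 1 were the 7 past the threshold, Trim30a, Myo7a, Hbb-bt, Hbb-bs, Gm10087 and Lyve1. Lyve1, a hyaluronan receptor known from lymphatic vessels, was faint, with 0.237 ± 0.0964 CPM in Bmal1cKO and 0.533 ± 0.182 CPM in Bmal1WT. Its groups overlapped (-1.15).

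**Figure D1:**
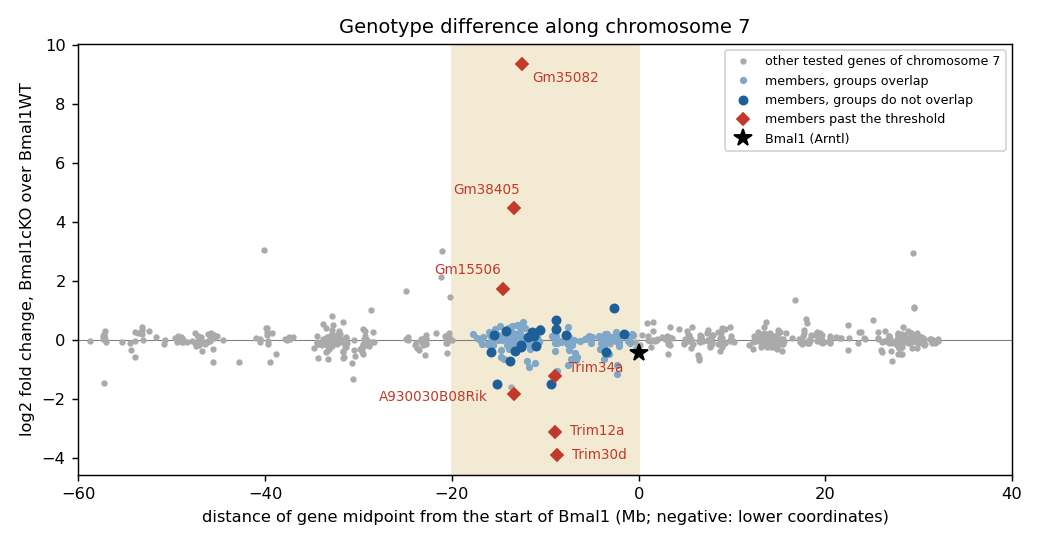
Fitted log2 fold change, Bmal1cKO over Bmal1WT, of tested genes of chromosome 7 against the distance of the gene midpoint from the start of Bmal1 in Mb, where negative values are lower coordinates. Grey points are other genes of the chromosome and the star is Bmal1. The shaded 20 Mb hold the members, light blue where the groups of 4 libraries overlap, dark blue where they do not and red diamonds where the gene passed the threshold. The 7 red points lie 8.72 to 14.51 Mb below Bmal1, and the fitted value of Gm35082 depends on the prior count because Bmal1WT had 0 counts.

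The members that passed the threshold did not lie next to Bmal1, as the map of fold changes by distance shows. Within 5 Mb of it 0 of 40 tested members passed and 3 had groups that did not overlap. From 5 to 10 Mb 3 of 52 passed, all lower, and 7 did not overlap. From 10 to 15 Mb 4 of 79 passed, 3 higher and 1 lower, and 14 did not overlap. From 15 to 20 Mb 0 of 23 passed and 3 did not overlap. For comparison, in the 20 Mb above Bmal1 0 of 257 tested genes passed and 14 did not overlap (5.45%). In the interval 20 to 40 Mb below it 1 of 147 passed and 17 did not overlap (11.6%). The median absolute log2 fold change was 0.14 within the 20 Mb below Bmal1, 0.13 in the next 20 Mb below and 0.07 in the 20 Mb above.

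Just inside the lower edge lay the pseudogenes Gm8309 and Gm5037, with log2 fold changes of 0.18 ± 0.19 and 0.05 ± 0.24. Just outside it lay Gm15501 (-0.01 ± 0.08) and Gm26862 (1.46 ± 0.31). At the upper edge Rassf10 was inside (-0.30 ± 0.09), and Bmal1 itself and Btbd10 (-0.18 ± 0.07) were outside. By the count rule, Gm34280, Gm8523, Trim66 and Snora23 entered with a fourth-highest count of 10, and B3gnt6, Gpx2-ps1, Gm45399 and Gm2996 stayed out with 9.

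In the Trim cluster (104244457 to 104507849, 8.72 to 8.95 Mb below Bmal1), 3 of 7 members passed the threshold, all lower in Bmal1cKO. Trim12a (104299894 to 104315466, minus strand) had 2.90, 2.24, 2.30 and 1.89 CPM in Bmal1cKO replicates 1 to 4, against 22.3, 22.3, 21.6 and 14.8 CPM in Bmal1WT. Every Bmal1cKO library was far under every Bmal1WT library. The means were 2.33 ± 0.418 CPM in Bmal1cKO and 20.3 ± 3.65 CPM in Bmal1WT (SD, n = 4 each), a log2 fold change of -3.12 ± 0.17 (SE). Trim30d (104470014 to 104507849, minus strand) had 0.155, 0.0515, 0.0842 and 0 CPM in Bmal1cKO, against 1.02, 1.00, 1.89 and 0.640 CPM in Bmal1WT. That is a total of 11 counts in the Bmal1cKO libraries and 202 in the Bmal1WT libraries, with a log2 fold change of -3.91 ± 0.59. Trim30d met the count rule only through Bmal1WT, the group in which it is higher.

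Trim34a (104244457 to 104262234, plus strand) had 5.30, 5.25, 5.53 and 5.64 CPM in Bmal1cKO and 13.4, 13.3, 15.2 and 8.60 CPM in Bmal1WT (-1.22 ± 0.16), without overlap. Its copy Trim34b (104329471 to 104336909, plus strand) had 5.58, 6.33, 6.12 and 6.39 CPM in Bmal1cKO and 5.92, 6.15, 6.80 and 3.66 CPM in Bmal1WT (0.12 ± 0.17), with overlapping groups. Trim34a shares 39.3% of its 51-base stretches with Trim34b, and Trim34b 56.2% with Trim34a. The sum of the 2 genes therefore depends less on how reads shared by them were split. The sum does not restore reads that were dropped, nor settle those that Trim34a shares with other genes. It was 10.9, 11.6, 11.6 and 12.03 CPM in Bmal1cKO and 19.3, 19.4, 22.0 and 12.3 CPM in Bmal1WT, and the groups still did not overlap, by a narrow margin at Bmal1WT replicate 4.

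Trim12c (104338754 to 104353362, minus strand), a near copy of Trim12a and Trim5, was higher in Bmal1cKO. It had 30.7, 27.9, 30.5 and 25.4 CPM in Bmal1cKO and 24.2, 22.5, 24.6 and 18.1 CPM in Bmal1WT, without overlap (0.35 ± 0.10). The small RNA gene Gm27995 lies wholly within an exon of Trim12c, and its higher value in Bmal1cKO (2.05 ± 0.380 CPM, against 1.28 ± 0.306 CPM in Bmal1WT, 0.68 ± 0.22) cannot be told apart from Trim12c. Trim5 (104263386 to 104288094, minus strand) had 8.79, 7.96, 9.12 and 7.61 CPM in Bmal1cKO and 12.5, 11.3, 11.7 and 7.98 CPM in Bmal1WT (-0.38 ± 0.14). Its exons overlap the small RNA gene Gm24846. Only Bmal1WT replicate 4 fell within the range of the Bmal1cKO libraries. Trim5, Trim12a and Trim12c added up to 39.3 ± 3.53 CPM in Bmal1cKO and 53.5 ± 8.50 CPM in Bmal1WT, with overlapping groups.

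Trim30a (104409025 to 104465193, minus strand) was low in both groups, with 0.517, 0.386, 0.758 and 0.266 CPM in Bmal1cKO and 0.831, 1.13, 1.36 and 0.728 CPM in Bmal1WT, which overlapped (-1.07 ± 0.34). Bmal1WT replicate 4 was the lowest of its group in all 7 Trim genes, and Bmal1cKO replicate 4 in 5 of them. Leaving out 1 library at a time, Trim12a passed in 8 of 8 fits. Trim34a passed in 2 of 8, those without Bmal1WT replicate 3 or 4, and Trim30d in 1 of 8, that without Bmal1WT replicate 4. These fits reuse the contrast on which the stretch was chosen and are no separate support. Among the libraries of replicates 1 and 3, and then of replicates 2 and 4, the log2 fold change was -3.07 and -3.16 for Trim12a, -1.40 and -0.996 for Trim34a and -3.57 and -4.80 for Trim30d.

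**Figure D2:**
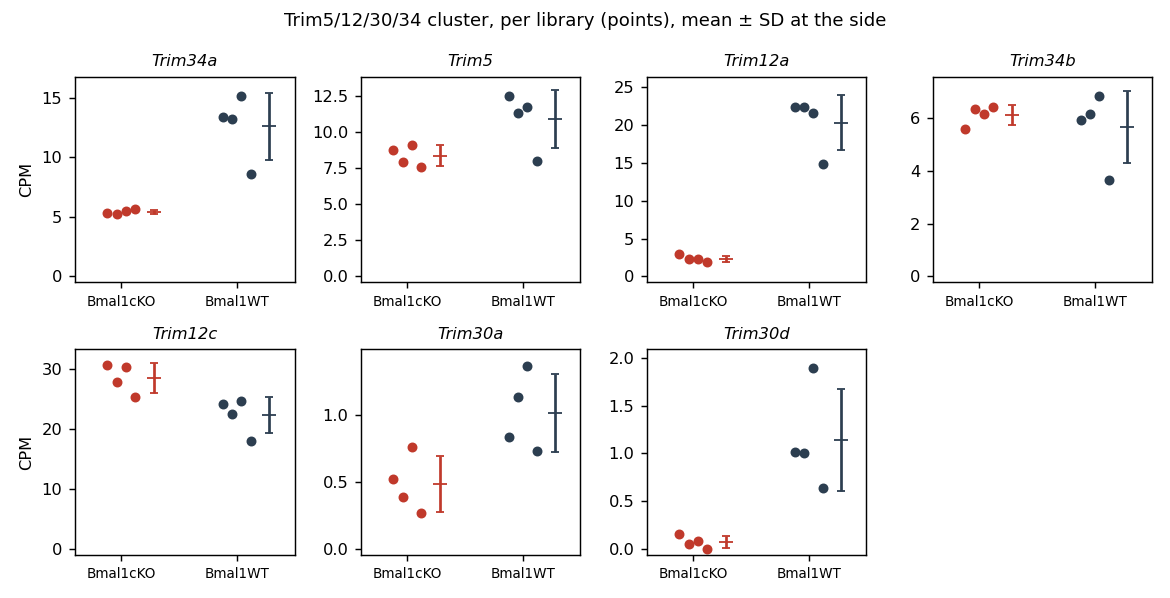
CPM of the 7 members of the Trim cluster in each library, Bmal1cKO in red on the left and Bmal1WT in dark blue on the right of each panel. Points run from replicate 1 to 4, and the bar at the side is the mean with the SD over 4 libraries. Trim12a, Trim34a and Trim30d are lower in every Bmal1cKO library, Trim12c is higher in every one, and Trim5, Trim34b and Trim30a overlap.

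The promoters of the cluster hold a common element in the reference genome. The motif made of GAAA, any 2 bases and GAAA again, the repeated core of interferon response elements, was searched on both strands from 250 bases before to 50 after each start in RefSeq's promoters of GRCm38.p6. It was in 3.44% of all 32851 promoters and in 9.15% of the 153 promoters that belong to members, where 108 of 198 members had an entry. In the cluster 6 of 7 genes held it and Trim34b did not. These 6 were among only 13 members in which the motif was found. The share for members thus counts near copies side by side and is not read as a trait of the stretch. The 60 bases that end with the match are shown on the strand of the gene for 5 of the 6, with the match in capitals (it lies on the opposite strand and so reads TTTC, 2 bases, TTTC), to set the copies with opposite differences side by side.
Trim12a, chr7:104315476-104315535, minus strand: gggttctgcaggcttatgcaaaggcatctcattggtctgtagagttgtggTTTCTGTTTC
Trim12c, chr7:104353369-104353428, minus strand: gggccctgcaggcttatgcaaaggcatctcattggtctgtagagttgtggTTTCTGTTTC
Trim5, chr7:104288146-104288205, minus strand: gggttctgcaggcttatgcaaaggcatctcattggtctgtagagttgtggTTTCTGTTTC
Trim30d, chr7:104507881-104507940, minus strand: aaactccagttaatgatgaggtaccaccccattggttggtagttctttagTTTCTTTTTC
Trim34a, chr7:104244417-104244476, plus strand: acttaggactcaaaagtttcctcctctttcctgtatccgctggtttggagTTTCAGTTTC
Trim12a, lower in Bmal1cKO, and Trim12c, higher there, carry the same match and nearly the same bases before it in this genome, and the 60 bases of Trim12a and Trim5 are identical. The match began at position 11 after the listed start in Trim12a and Trim34a and 29, 49 and 41 bases before it in Trim12c, Trim5 and Trim30d. The sequences are those of the reference genome, not of these mice.

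Other members of the stretch belong to interferon biology as well. Gvin genes are a family of very large GTPases induced by interferon, and 7 of the 11 listed were members. Of these, 2 (Gvin1 and Gm4070) are annotated as protein coding and 5 as pseudogenes. All 7 had negative log2 fold changes, from -0.68 to -0.02 with a median of -0.57. The threshold was passed by 0 with edgeR (0.173% of all genes) or DESeq2 (1.28% of all genes). Of the 7, 0 had an unadjusted edgeR p under 0.05 (8.30% of all genes). Their groups overlapped in every case, while those of 5.15% of all genes did not. Gvin1 had 1.03, 0.798, 2.86 and 1.09 CPM in Bmal1cKO and 1.61, 2.05, 1.87 and 3.62 CPM in Bmal1WT, so Bmal1cKO replicate 3 stood above the rest of its group. Its log2 fold change was -0.67 ± 0.42 over all libraries, 0.15 among replicates 1 and 3 and -1.58 among replicates 2 and 4. The members of this family are not all independent. Of their 51-base stretches, Gvin1 shared 99.1% with other genes, Gm4070 97.7%, Gm8979 85.5% and Gm8989 78.1%. Gm8995 shared 18.0%, Gm1966 16.8% and Gm4759 2.2%. Of the TRIM genes outside the cluster, Trim68 had 28.3, 26.7, 26.5 and 25.0 CPM in Bmal1cKO and 24.6, 19.4, 20.8 and 19.1 CPM in Bmal1WT (0.34 ± 0.09), without overlap. The groups overlapped for Trim3 (0.11 ± 0.06) and, with the lowest value of that list, Trim6 (-0.13).

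The other 4 members past the threshold are noncoding genes that lie within 98682336 to 100677760. The long noncoding RNA gene Gm35082 (ENSMUSG00000108866, 100675088 to 100677760, plus strand) had 2.20, 2.11, 2.33 and 1.52 CPM in Bmal1cKO replicates 1 to 4 and 0 counts in all 4 Bmal1WT libraries. The total was 307 counts in Bmal1cKO against 0 in Bmal1WT. With 3 counts over the 4 Bmal1WT libraries taken as the floor, Gm35082 was at least 117-fold higher in Bmal1cKO. It shared 14.1% of its 51-base stretches with other genes. The 250 bases before the first of its 3 starts in RefSeq's table (GRCm38.p6, chr7:100674757-100675006, plus strand) are shown because the gene is the one with no count in a whole group. Neither the doubled GAAA motif nor the E-box CACGTG was found in them.
Gm35082: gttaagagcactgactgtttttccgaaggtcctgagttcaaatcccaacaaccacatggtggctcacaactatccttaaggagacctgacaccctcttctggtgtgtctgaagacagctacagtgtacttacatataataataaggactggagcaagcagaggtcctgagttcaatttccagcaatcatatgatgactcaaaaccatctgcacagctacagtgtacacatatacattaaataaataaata

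Gm38405 (99870666 to 99889358, minus strand) is annotated as antisense to Xrra1. It had 1.11, 1.18, 1.18 and 0.825 CPM in Bmal1cKO and 0, 0.0769, 0.0789 and 0.0221 CPM in Bmal1WT, a total of 162 counts in Bmal1cKO and 8 in Bmal1WT (log2 fold change 4.45 ± 0.45). A930030B08Rik (99900192 to 99904156, minus strand), which overlaps Xrra1 too, was lower. It had 0.284, 0.309, 0.197 and 0.372 CPM in Bmal1cKO and 0.724, 1.23, 1.22 and 1.04 CPM in Bmal1WT (-1.85 ± 0.27). Xrra1 was under the count rule, at 0.0561 to 0.155 CPM in Bmal1cKO and 0.0882 to 0.217 CPM in Bmal1WT, and shares 9.8% of the 51-base stretches of Gm38405 and 6.3% of those of A930030B08Rik. Whether reads were counted by strand is not given, so reads of the overlapping stretches cannot be told apart. Gm15506 (98682336 to 98702928, minus strand) had 3.41, 3.89, 4.55 and 4.28 CPM in Bmal1cKO and 1.39, 0.975, 1.30 and 1.19 CPM in Bmal1WT (1.73 ± 0.16). Gm35082, Gm38405 and Gm15506 passed in 8 of 8 fits that left out 1 library, and A930030B08Rik in 1 of 8, that without Bmal1WT replicate 1. These fits reuse the contrast on which the stretch was chosen and are no separate support. Gm35082 and Gm38405 also met the count rule only through Bmal1cKO, the group in which they are higher. No role is given here for any of these 4 noncoding genes.

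**Figure D3:**
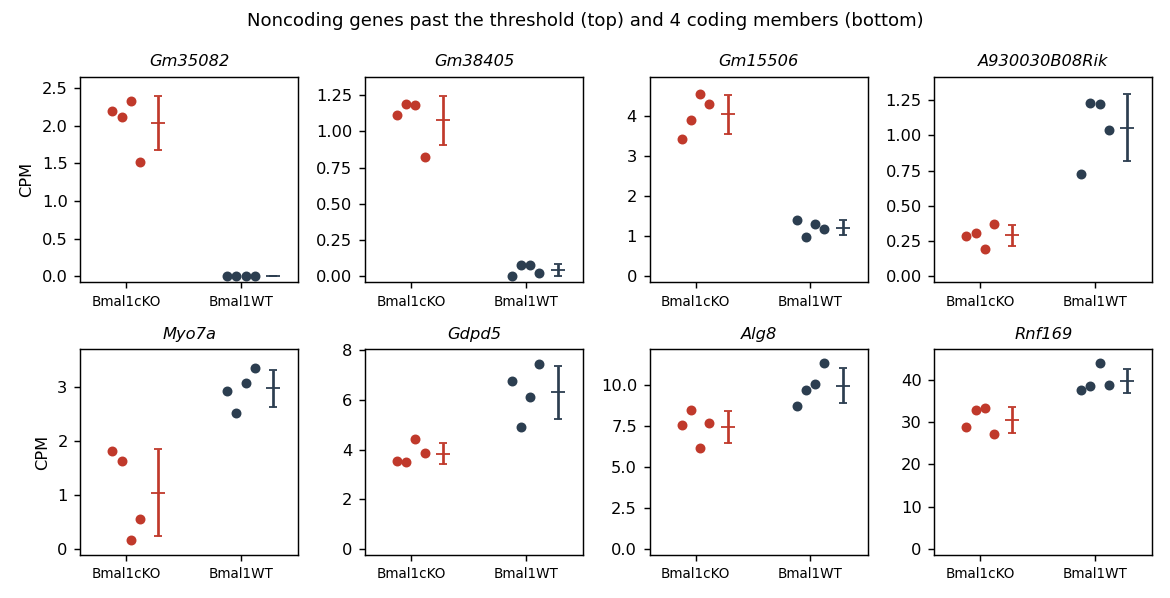
CPM per library of the 4 noncoding members past the threshold (top) and of the coding members Myo7a, Gdpd5, Alg8 and Rnf169 (bottom), Bmal1cKO in red on the left, Bmal1WT in dark blue on the right, with the mean and SD over 4 libraries at the side. The groups do not overlap in any of the 8 panels, and Gm35082 is at 0 in each Bmal1WT library.

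Outside the Trim cluster, 15 of the 120 tested coding members had groups that did not overlap, against 5.15% of all genes tested. None of the 15 passed the threshold by edgeR with genotype as the only term. With the replicate number as a block, Rnf169 passed. The lowest by fold change was Myo7a, an unconventional myosin known from the hair cells of the inner ear. It had 1.81, 1.62, 0.168 and 0.559 CPM in Bmal1cKO and 2.92, 2.51, 3.08 and 3.35 CPM in Bmal1WT (-1.50 ± 0.51), with a wide spread among the Bmal1cKO libraries. Gdpd5, a glycerophosphodiesterase, had 3.54, 3.50, 4.43 and 3.86 CPM in Bmal1cKO and 6.75, 4.92, 6.11 and 7.45 CPM in Bmal1WT (-0.72 ± 0.15). Alg8, a glucosyltransferase that builds the precursor of N-glycans, had 7.47 ± 0.977 CPM in Bmal1cKO and 9.98 ± 1.08 CPM in Bmal1WT (-0.42 ± 0.12). Rnf169, a ubiquitin-binding protein of DNA break sites, had 28.7, 32.7, 33.4 and 27.1 CPM in Bmal1cKO and 37.7, 38.4, 44.1 and 38.7 CPM in Bmal1WT (-0.38 ± 0.08). In a bulk sample, fewer cells of a type and less RNA per cell cannot be told apart.

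Among those higher in Bmal1cKO, Uvrag, which acts in autophagy and endosome maturation, had 42.5 ± 3.57 CPM in Bmal1cKO and 34.6 ± 2.61 CPM in Bmal1WT (0.30 ± 0.08). Inppl1, a phosphatase of inositol lipids, had 37.7, 40.4, 41.3 and 38.3 CPM in Bmal1cKO and 32.6, 31.4, 32.7 and 33.7 CPM in Bmal1WT (0.27 ± 0.05). Uvrag shares exonic bases with Gm45187 and Inppl1 with Phox2a and Gm10602, so a part of their reads is uncertain. The remaining ones were closer to 0. Galnt18 (0.20 ± 0.06) belongs to the enzymes that start O-glycans, Cavin3 (0.17 ± 0.07) to the coat of caveolae, Clns1a (0.17 ± 0.06) to the assembly of splicing particles, Numa1 (0.13 ± 0.05) to the spindle pole and Stard10 (0.11 ± 0.05) to phospholipid transfer. On the lower side lay Mrpl48, a mitochondrial ribosomal protein (-0.25 ± 0.06), and Rab6a, a small GTPase of the Golgi (-0.17 ± 0.05), which overlap each other at their ends. The noncoding AC139579.1 (-0.23 ± 0.07) lies wholly on exons of Pgap2, and their reads cannot be told apart. The pseudogenes 4930431P19Rik (-0.40 ± 0.14) and Gm10087 (1.08 ± 0.26) did not overlap between the groups either.

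**Figure D4:**
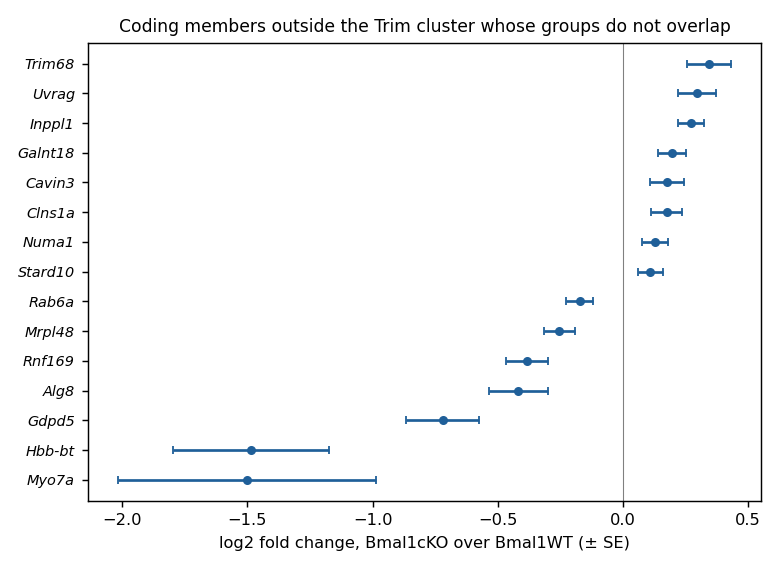
Fitted log2 fold change, Bmal1cKO over Bmal1WT, with its SE for the 15 coding members outside the Trim cluster whose groups of 4 libraries do not overlap. The values run from -1.50 for Myo7a to 0.34 for Trim68, and 8 of the 15 lie above 0.

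The adult beta globin genes Hbb-bs and Hbb-bt lie in the stretch too and are named here after their values were seen. Hbb-bt had 0.284, 0.258, 0.645 and 0.319 CPM in Bmal1cKO and 1.13, 0.769, 1.10 and 1.21 CPM in Bmal1WT (-1.49 ± 0.31), without overlap. Hbb-bs had 0.440, 0.360, 1.09 and 0.319 CPM in Bmal1cKO and 1.69, 1.03, 1.40 and 2.07 CPM in Bmal1WT (-1.49 ± 0.40), with overlap at Bmal1cKO replicate 3. Hbb-bt shares 58.2% of its 51-base stretches with Hbb-bs, and Hbb-bs shares 53.1% of its own with Hbb-bt. Their values are therefore not independent. The alpha globin gene Hba-a1, which lies on another chromosome and also marks red cells, had 14.3 to 20.3 CPM in Bmal1cKO and 12.7 to 18.1 CPM in Bmal1WT. Its median over all libraries was 16.2 CPM, against 1.06 CPM for Hbb-bs and 0.707 CPM for Hbb-bt. Whether the amount of red cells differed between the groups was not tested.

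Grouped by role, the coding members outside the cluster held 0 genes past the threshold by edgeR in each list. By DESeq2 the lists outside the Trim cluster held 5 called members, Gdpd5, Uvrag, Rnf169, Inppl1 and Trim68, and at an unadjusted edgeR p under 0.05 each list held between 0 and 4 members. The 5 translation genes had a median log2 fold change of -0.04, with the ribosomal protein gene Rps3 at 711 ± 29.7 CPM in Bmal1cKO and 746 ± 68.3 CPM in Bmal1WT (-0.07 ± 0.08). Eif4g2, an initiation factor relative, had 838 ± 32.4 CPM in Bmal1cKO and 862 ± 36.7 CPM in Bmal1WT (-0.04 ± 0.07). Per kilobase of exon and averaged over all libraries, Rps3 led the members that share under 5% of their 51-base stretches, at 162 CPM, before Eif4g2 at 83.6, Eif3f at 73.4 and the triglyceride synthesis enzyme gene Dgat2 at 52.5. The 8 mitochondrial genes had a median of -0.03, with the carrier gene Ucp2 at 297 ± 32.0 CPM in Bmal1cKO and 256 ± 24.2 CPM in Bmal1WT (0.21 ± 0.09) and the chaperone gene Clpb at -0.08 ± 0.08. The 13 tested adhesion and cytoskeleton genes had a median of 0.04, from Myo7a to the kinase gene Pak1 (0.36), with the actin oxidase gene Mical2 at -0.11 ± 0.10.

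The 8 secreted and Wnt genes had a median of 0.16, with Tsku, a secreted inhibitor, highest (0.45) and Wnt11 lowest (-0.67). Within this list Serpinh1, the collagen chaperone, was at 0.11 ± 0.10 and Dkk3 at 38.4 ± 6.90 CPM in Bmal1cKO and 38.5 ± 10.5 CPM in Bmal1WT. The 7 receptors and channels had a median of 0.25 with 6 positive, including the calcium sensor gene Stim1 (0.09 ± 0.06) and the teneurin gene Tenm4 (0.08 ± 0.08). That median was the value of the faint gene Aqp11 (0.25 ± 0.34), and the median of the mean CPM in this list was only 0.667. The 11 lipid and sugar enzymes had a median of -0.01, with Dgat2 at 151 ± 33.7 CPM in Bmal1cKO and 173 ± 14.1 CPM in Bmal1WT (-0.19 ± 0.15) and the alkaline ceramidase gene Acer3 at 0.13 ± 0.07. The 8 lysosome, autophagy and traffic genes had a median of -0.04, and the lysosomal peptidase gene Tpp1 was at 143 ± 7.06 CPM in Bmal1cKO and 143 ± 7.45 CPM in Bmal1WT. Medians were 0.06 for the 12 chromatin and transcription genes (Thap12 0.08 ± 0.05, Rsf1 0.05 ± 0.05), -0.00 for the 14 ubiquitin and kinase genes (Usp47 -0.06 ± 0.04, Rnf141 0.02 ± 0.06) and -0.04 for the 3 nuclear transport genes (Ipo7 -0.04 ± 0.05, Nup98 -0.06 ± 0.05).

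The E-box CACGTG, on which BMAL1 and CLOCK bind, was searched in the same windows, where it reads alike on both strands. It was in 7.84% of the 153 promoters of members and in 7.15% of all promoters. The 12 members that held it, among them Ilk, Eif3f, Ampd3, Ipo7 and Mical2, had log2 fold changes from -0.23 to 0.36 with a median of 0.01. Of them 0 passed the threshold by edgeR (0.173% of all genes) or DESeq2 (1.28% of all genes). An unadjusted edgeR p under 0.05 was found in 2 (8.30% of all genes). In 1, Clns1a, the groups did not overlap (5.15% of all genes). With only 12 members, these counts are not read as a result about the E-box.

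Few members were called between the sexes, a contrast that the choice of the stretch had not used. Their share is not read as a difference from all genes. The labels name no sex, but replicates 1 and 3 of both groups had Xist at 1130 to 1740 CPM and replicates 2 and 4 at 0.103 to 2.15 CPM, with Y-linked genes the other way round. Between female and male libraries, with genotype as a covariate, edgeR called 2 of the 194 members (1.03%), against 1.84% of all genes and 1.78% of genes off the X and Y chromosomes. Both were lower in females. Wnt11, a Wnt ligand, had 3.36 CPM in females and 6.198 CPM in males on average. Its female over male log2 value was -0.86 ± 0.16, lower in females within both genotypes (edgeR adjusted p = 0.035, n = 4 each). Scube2, a secreted protein that helps release Hedgehog, had 14.3 CPM in females and 20.1 CPM in males (-0.49 ± 0.10, edgeR adjusted p = 0.046, n = 4 each). Without any single library other than Bmal1cKO replicate 1 the count was 0, and without that library it was 4. DESeq2 called 6 on all libraries, against 5.06% of all genes. Of the 7 members past the threshold between genotypes, none was called between the sexes.

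Whether the genotype difference itself differed between the sexes was tested as an interaction in the same way. EdgeR and DESeq2 called 0 of the 194 members, against 0.00509% of all genes by edgeR, and 8 members had an unadjusted p under 0.05, against 6.64% of all genes.

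The libraries carried the markers of epidermis. The 6 keratinocyte markers, keratins, Trp63 and Dsg3, summed to 22900 to 28700 CPM in Bmal1cKO and 23700 to 33400 CPM in Bmal1WT. Those sums overlapped, while Krt5 alone did not, at 8550 to 9260 CPM in Bmal1cKO and 7550 to 8510 CPM in Bmal1WT. Markers of other cells were lower, and their sums overlapped between the groups. T cell markers summed to 80.9 to 124 CPM in Bmal1cKO and 79.0 to 89.5 CPM in Bmal1WT. The highest of them by median, Thy1, was at 58.8 to 81.8 CPM in Bmal1cKO and 33.3 to 63.2 CPM in Bmal1WT. Langerhans cell markers summed to 198 to 413 CPM in Bmal1cKO and 176 to 388 CPM in Bmal1WT. A large part of this sum was Epcam, at 104 to 131 CPM in Bmal1cKO and 120 to 132 CPM in Bmal1WT. Cd207 held only 5.67 to 13.2 CPM in Bmal1cKO and 3.18 to 20.1 CPM in Bmal1WT. Melanocyte markers summed to 2.76 to 18.2 CPM in Bmal1cKO and 7.23 to 16.1 CPM in Bmal1WT, and fibroblast markers to 4.45 to 15.1 CPM in Bmal1cKO and 3.04 to 42.5 CPM in Bmal1WT. Macrophage and granulocyte markers reached 5.53 CPM, endothelial markers 1.01 CPM and fat markers 0.0394 CPM in the highest library. The sums for muscle and red cells overlapped as well, but they were mostly Acta1 and Hba-a1. Among the red cell markers Hba-a1 and Hbb-bs overlapped. Hbb-bt did not, at 0.258 to 0.645 CPM in Bmal1cKO and 0.769 to 1.21 CPM in Bmal1WT. The part of these cells in the values of low members such as Myo7a and Lyve1 was not tested.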

How the data were processed

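The authors deposited raw, whole-number counts for each Ensembl gene in every library. PolyA RNA had been read from strand-specific libraries as single reads of 51 bases, per the labels' protocols. The submitters' processing notes name Trim Galore, STAR 2.7.10a, featureCounts and the build GRCm38 (mm10). Which annotation and strand setting were used, and how reads with several places were treated, is not given in the sources used here. Both bear on the Trim paralogs. GENCODE M21 named 33974 of 34070 genes. Members, lists and tests were chosen with earlier results of these data known.

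Counts were fitted with edgeR 4.0.16 in R 4.3.3 (filterByExpr with a minimum count of 10 and a minimum total of 15, TMM, glmQLFit and glmQLFTest, two-sided, Benjamini-Hochberg over 19646 genes), with genotype as the only term. Sex was fitted with genotype as a covariate, and their interaction in a model of both. Intervals are SD over 4 libraries for CPM and SE for log2 fold changes. The procedure was tested on simulated data. Shared 51-base stretches were counted on either strand over GENCODE M21 transcripts. DESeq2 1.42.0, RLE scaling, no filter, the replicate block, sex as a covariate, other widths of the stretch and left-out libraries were alternatives. No libraries of a group agreed within sampling noise (chi-square per degree of freedom 13.2 to 49.3).

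The deviation of a library from the mean of its group correlated across genes with that of the library of the same number in the other group (0.33, 0.48, 0.39 and 0.37), over the minimum of 0.1 set for pairing. The numbers are those of the sample titles. The fit with genotype as its only term left this correlation out. It called 34 of all 19646 genes tested, and the fit with the replicate number as a block called 152. Same-numbered libraries were of the same sex, and libraries of the same sex but another number also correlated (0.345, 0.146, 0.166 and 0.161), the first of these above the 0.33 of the pair numbered 1, so shared sex and the number are not separated by this check. Named are the Trim cluster, every member past the threshold, up to 20 others with the largest fold change among those with a mean of at least 1 CPM and groups that do not overlap (18 qualified), the 2 members of highest mean CPM of each list, and Bmal1. Others are said to be named after their values were seen, or illustrate a list, an edge of the rule or a test.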

Additional observations from a re-analysis of the deposited data

Results flagged for a closer look

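Of 101 groups of 4 libraries checked among the named genes, 9 held a library set apart from the other 3 by more than Dixon's 95% critical value, where chance flags about 1 in 20 groups. In Bmal1WT, Trim12a was at 14.8 CPM in replicate 4 against 21.6 to 22.3 in the others, Gm10087 at 0.589 CPM in replicate 1 against 1.00 to 1.06, and Rnf169 at 44.1 CPM in replicate 3 against 37.7 to 38.7. Cavin3 was at 29.1 CPM in Bmal1WT replicate 1 against 33.1 to 33.8, Trim3 at 27.0 CPM in Bmal1WT replicate 2 against 29.0 to 29.4, and Nup98 at 56.5 CPM in Bmal1WT replicate 2 against 62.4 to 63.1. In Bmal1cKO, Galnt18 was at 33.9 CPM in replicate 2 against 37.4 to 38.1, Trim3 at 27.8 CPM in replicate 4 against 31.6 to 32.2, and Gvin1 at 2.86 CPM in replicate 3 against 0.798 to 1.09.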

How the results depend on the processing

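Against 7 members past the threshold between genotypes, DESeq2 called 15 (1.28% of all genes), and the replicate block gave 9. The count was 3 within 10 Mb of Bmal1, 1 in replicates 1 and 3 alone, 4 in replicates 2 and 4 alone, and 1 (Gm15506) among members that share under 5% of their 51-base stretches, a split added after seeing the data. Leaving out 1 library gave 4 to 6. Trim genes called numbered 3, 1 in replicates 1 and 3 alone, 1 in replicates 2 and 4 alone, and 1 to 3 with 1 library left out. Against 27 members whose groups do not overlap, there were 10 within 10 Mb, 44 within 40 Mb, 14 among members that overlap no other gene and 10 among those with little shared sequence. There were 94 in replicates 1 and 3 alone, 98 in replicates 2 and 4 alone, and 30 to 46 with 1 library left out. Fewer libraries overlap less often by construction, and the share over all genes is not given for them. These counts are therefore not read as a result about the members. The median log2 fold change of -0.0199 became 0.0063 in replicates 1 and 3 alone, 0.0044 in replicates 2 and 4 alone, -0.0406 within 10 Mb, -0.0052 without overlapping genes, and -0.0245 to 0.0081 with 1 library left out. Between sexes, 2 members became 6 with DESeq2, 14 without a filter, 1 within 10 Mb, 4 within 40 Mb and 0 to 4 with 1 library left out. Without a filter the interaction gave 5 in place of 0. The cause of these changes was not tested. Shares over all genes are not given here for fits without a filter or with fewer libraries. Nothing about the members is read from those counts. Of 765 values of named genes over these alternatives, 14 moved by more than the spread between libraries, and no called one changed sign. Depth limits Trim30d, Trim30a, Gm38405 and A930030B08Rik, which hold few counts in a group.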
